A study of Rattus norvegicus with 40 samples.

Results

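Solute carriers are membrane proteins that move sugars, organic acids, amino acids, nucleotides, metals and other ions across the plasma membrane and the membranes of organelles. Their genes are numbered by family, and the members described here are the genes of the array annotation whose symbol starts with Slc and a digit, apart from Slc27a1, Slc25a20, Slc8a1, Slc2a1 and Slc4a1, which were left out. The array held 315 such genes, on 466 probes. Probes with a value in 4 or more of the 6 animals in each group were tested, namely 248 probes for 186 genes, of 9775 genes tested in all. Slc4a1ap and Slc7a6os match the rule by their symbol but encode no carrier, and they were counted apart from the substrate classes. Both are among the 315 and the 186 genes and stay in every count over all carrier genes.

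The heart meets most of its energy demand by oxidation in mitochondria. Most carriers of the Slc25 family lie in the inner mitochondrial membrane and exchange adenine nucleotides, phosphate, coenzymes and metabolites with the cytosol. The class of mitochondrial carriers below is this family by its number, whatever the location of a member. Carriers of the plasma membrane, such as the glucose transporter Slc2a4, the monocarboxylate transporter Slc16a1 and the creatine transporter Slc6a8, bring fuel and creatine into the muscle cell.

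The samples were right ventricles of male Sprague-Dawley rats, with 6 animals in each of 4 groups. SuHx + carvedilol rats had SU5416 (20 mg/kg), an inhibitor of the receptors for vascular endothelial growth factor, and 4 weeks of 10% oxygen. They then had carvedilol, which blocks beta and alpha adrenergic receptors, at 15 mg/kg a day by gavage for 4 weeks in room air. SuHx rats had the same SU5416 and hypoxia, without carvedilol, and then 2 weeks at sea level. Hypoxia rats had 4 weeks of 10% oxygen alone, and Normal rats were untreated. The time since hypoxia differed between the groups, and no group given a vehicle was analysed here, so that carvedilol and the later time cannot be told apart. All 6 SuHx + carvedilol animals, and no SuHx or Normal animal, have numbers over 100 in the labels. What this numbering stands for is not given, and it cannot be told apart from carvedilol in comparisons with SuHx or Normal. Likewise, SuHx differed from Hypoxia both by SU5416 and by the 2 weeks at sea level, and these cannot be told apart. In this field, hypoxia alone stands for an adapted and SuHx for a failing right ventricle, and the comparisons set these states against normal, against each other and against the ventricle after carvedilol.

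RNA of each animal was labelled with Cy5 and hybridised against a Cy3-labelled reference RNA pooled from 14 rat cell lines, on 1 to 5 arrays per animal and 40 arrays in all. A level given here is the log2 ratio of the ventricle over that reference RNA, averaged over the arrays of an animal. A change is the difference between the mean log2 ratios of 2 groups, given with the standard error of the model (±), and n counts animals. Since each level is set against the reference RNA for the same probe, levels of different genes are not compared. All 8 markers of cardiomyocytes were tested, and their mean level per animal, over the markers with a value, was between 3.42 and 6.52 in all 24 animals. Their mean level was higher in SuHx + carvedilol animals (5.05 to 6.52) than in Normal animals (4.13 to 4.93), and 5 of the 8 markers rose in that comparison. Of the other cell types, 1 of 5 tested endothelial, 2 of 5 macrophage and 1 of 4 erythroid markers rose in SuHx + carvedilol against Normal, the 1 tested mesothelial marker fell, and none of 6 fibroblast, 2 smooth muscle, 1 lymphocyte, 3 adipocyte, 2 Schwann cell and 3 atrial markers passed the limma test. Ryr2 (-1.62), Myh6 (-0.26), Cdh5 (-0.75) and Pecam1 (-0.06) had negative changes in SuHx + carvedilol against Normal, opposite to the called markers of their cell type. In Hypoxia against Normal 1 of 8 cardiomyocyte markers fell (Ryr2, -4.33 ± 0.80), 1 of 3 adipocyte markers rose (Lep, 1.41 ± 0.37) and no other marker was called. Myh7 (0.72) and Tnni3 (0.39) had positive changes there, and Adipoq (-2.04) and Cidec (-0.62) had negative ones. In SuHx against Hypoxia 1 of 8 cardiomyocyte markers (Ryr2, 4.24 ± 0.80) and 1 of 6 fibroblast markers (Col1a2, 0.88 ± 0.25) rose. So did 1 of 5 macrophage markers (C1qa, 1.35 ± 0.35) and 1 of 3 atrial markers (Myl7, 1.78 ± 0.39). Of 3 adipocyte markers Lep fell (-1.20 ± 0.37), and no other marker was called. Myh6 (-0.40), Dcn (-0.30), Pdgfra (-0.15), Myl4 (-0.05), Sln (-0.13), Adipoq (1.77) and Cidec (0.94) had the sign opposite to the called marker of their cell type. The mean of the cardiomyocyte markers was 4.18 to 5.40 in SuHx animals, against 3.42 to 4.83 in Hypoxia animals. Ryr2 had a value in only 4 Hypoxia animals and Ttn in only 5 SuHx animals, and a missing marker moves such a mean. In SuHx + carvedilol against SuHx 3 of 8 cardiomyocyte markers rose, namely Tnnt2 (2.15 ± 0.36), Tnni3 (1.96 ± 0.41) and Actc1 (1.54 ± 0.34). Ryr2 went the other way without a call (-1.53 ± 0.72), and no other marker was called. In SuHx against Normal no marker passed the limma test. The part of these cell type markers in the carrier results was not tested. A lower level may come from fewer cells of a type or from less RNA per cell, which cannot be told apart in whole tissue. The median number of carrier probes with a value was 305 of 466 in SuHx + carvedilol animals, 344 in SuHx animals, 342 in Hypoxia animals and 376 in Normal animals.

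Fewer carrier genes, and fewer of all tested genes, were called in SuHx than in Hypoxia ventricles when each was set against Normal. In Hypoxia against Normal, 16 of the 186 carrier genes fell and 1 rose at an adjusted p under 0.05 (limma, Benjamini-Hochberg over all tested genes). That is 9.14% of the carriers, beside 12.4% of all tested genes, of which 11.5% fell and 0.890% rose. SuHx against Normal had 1 carrier gene lower and 0 higher, which is 0.538%, beside 0.941% of all tested genes (0.552% lower and 0.389% higher). SuHx against Hypoxia had 13 higher and 2 lower, which is 8.06%, beside 11.6% of all tested genes (9.78% higher and 1.79% lower). SuHx + carvedilol against Normal had 15 lower and 0 higher, which is also 8.06%, beside 11.0% of all tested genes (8.75% lower and 2.27% higher). The 15 include Slc4a1ap, which encodes no carrier. In SuHx + carvedilol against SuHx no carrier gene passed the limma test. An unadjusted p under 0.05 was found for 29 carriers, or 15.6%, beside 16.8% of all tested genes. Of all tested genes 0.931% passed the adjusted threshold (0.307% higher and 0.624% lower). The share of carriers called was near that of all tested genes and somewhat below it in each comparison. This gap was not tested, and the comparisons share animals.

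All genes together were shifted between the groups, and the carriers with them. The median change was -0.43 over the carriers and -0.39 over all tested genes in Hypoxia against Normal, and 0.35 and 0.26 in SuHx against Hypoxia. In SuHx + carvedilol against Normal it was -0.39 and -0.32, in SuHx + carvedilol against SuHx -0.23 and -0.20, and in SuHx against Normal -0.12 and -0.12. Quantile normalisation moved the all-gene medians of Hypoxia against Normal and SuHx against Hypoxia by about 0.1, to -0.29 and 0.16. With each animal centred on its median over the tested genes they were -0.09 and 0.04, and with that centring 9 carriers fell and 2 rose in Hypoxia against Normal. The same centring gave 9 higher and 3 lower in SuHx against Hypoxia, and 4 higher and 7 lower in SuHx + carvedilol against Normal. Changes below are on the deposited scale, and for Slc25a42, Slc25a51, Slc6a8 and Slc14a1 the value relative to the all-gene median is given too.

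**Figure D1:**
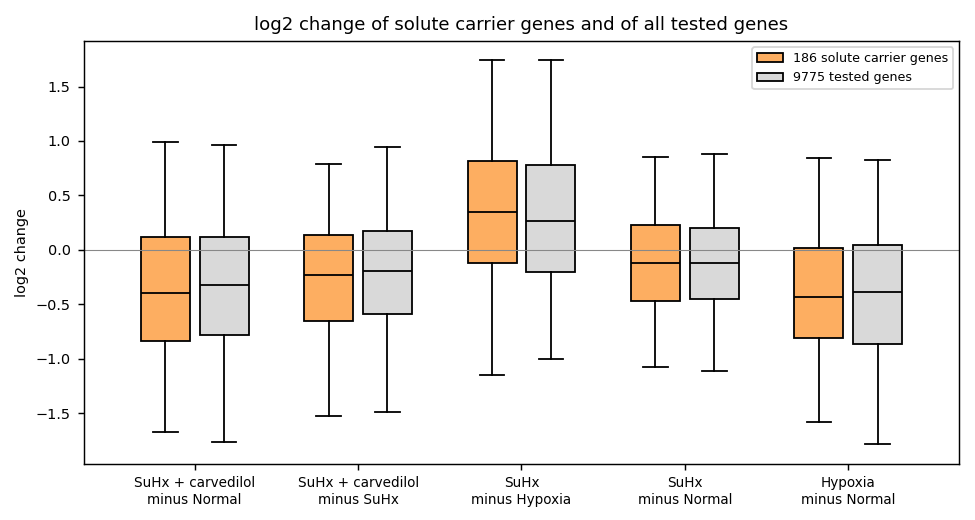
log2 change of the 186 solute carrier genes (orange) and of all 9775 tested genes (grey) in 5 comparisons. Boxes span the quartiles with the median as a line and whiskers run from the 5th to the 95th percentile; the carriers follow the shift of all genes, with medians of -0.43 and -0.39 in Hypoxia minus Normal and of 0.35 and 0.26 in SuHx minus Hypoxia.

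Of the 34 mitochondrial carriers on the array 27 were tested, and of these 6 fell in SuHx + carvedilol against Normal, 3 rose in SuHx against Hypoxia, 1 fell in SuHx against Normal and 4 fell in Hypoxia against Normal. That is 22.2%, 11.1%, 3.7% and 14.8% of the class in these comparisons, beside 11.0%, 11.6%, 0.941% and 12.4% of all tested genes. Metal carriers, with 26 tested, had 1 higher and 2 lower in Hypoxia against Normal, 4 higher in SuHx against Hypoxia and 1 lower in SuHx + carvedilol against Normal, or 11.5%, 15.4% and 3.85% of the class. Amino acid carriers, with 31 tested, had 2 lower in Hypoxia against Normal, 1 higher and 1 lower in SuHx against Hypoxia and 1 lower in SuHx + carvedilol against Normal, or 6.45%, 6.45% and 3.23%. None of the 12 tested organic ion carriers, 4 vesicular carriers, 4 fatty acid carriers and 2 peptide carriers was called by limma in any of the 5 comparisons. The calls were not compared between classes, or with all genes, by a test.

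**Figure D2:**
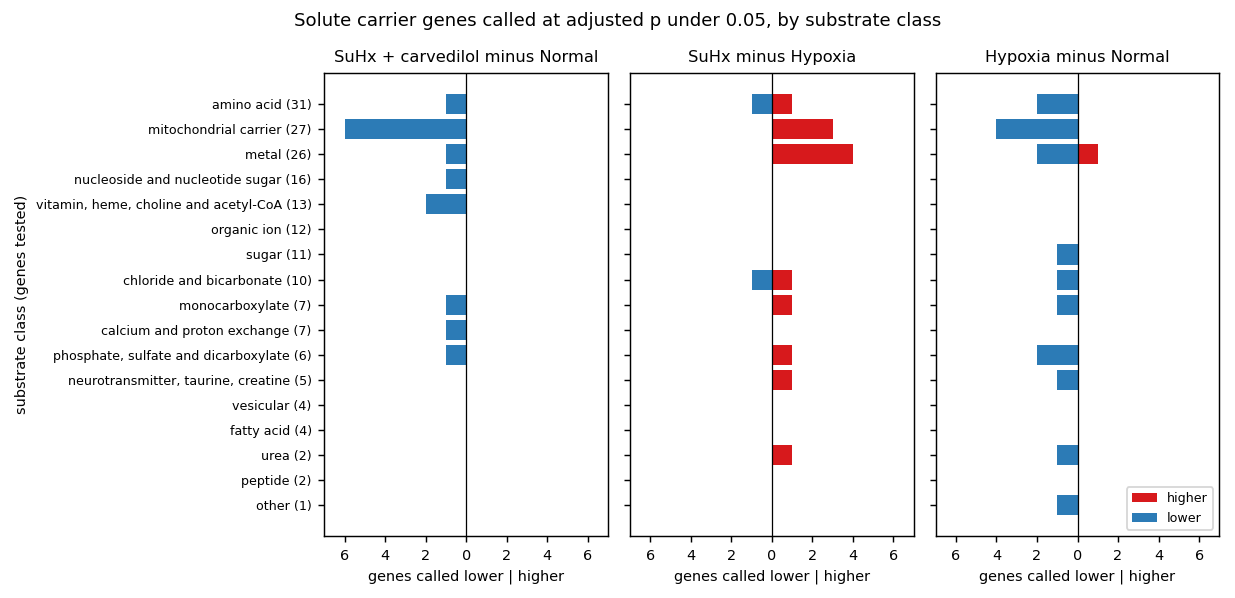
Number of solute carrier genes called lower (blue, to the left) or higher (red, to the right) at an adjusted p under 0.05, by substrate class, in 3 comparisons. The number after each class is the genes tested; mitochondrial carriers have 6 lower in SuHx + carvedilol minus Normal and 4 lower in Hypoxia minus Normal.

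Slc25a42 was lower than Normal by the test in 3 comparisons, and Slc25a25 and Slc25a23 were so in 2. Slc25a42 carries coenzyme A into the mitochondrion, and Slc25a25 and Slc25a23 are calcium-regulated carriers that exchange ATP-Mg for phosphate. The windows around their start sites are printed because no other carrier was called lower than Normal in more than 1 comparison. They run from 250 bases before to 50 bases after the start, 5′ to 3′ on the strand of the gene, and come from RefSeq with the build GRCr8. Capitals mark ACGTG, the core of the hypoxia response element and also part of the E-box, on either strand. AAGGTCA, the half-site bound by oestrogen-related receptors, was searched for on both strands too and shares no bases with the capitals, since none of the 3 windows holds it.
Slc25a42 (chr16:19247724-19248023, plus strand): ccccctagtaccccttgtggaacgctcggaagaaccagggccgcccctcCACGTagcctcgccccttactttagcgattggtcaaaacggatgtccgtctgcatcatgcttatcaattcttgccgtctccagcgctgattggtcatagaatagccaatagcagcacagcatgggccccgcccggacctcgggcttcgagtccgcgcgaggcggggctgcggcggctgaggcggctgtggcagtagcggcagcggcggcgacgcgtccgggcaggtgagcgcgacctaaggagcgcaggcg
Slc25a25 (chr3:36116532-36116831, minus strand): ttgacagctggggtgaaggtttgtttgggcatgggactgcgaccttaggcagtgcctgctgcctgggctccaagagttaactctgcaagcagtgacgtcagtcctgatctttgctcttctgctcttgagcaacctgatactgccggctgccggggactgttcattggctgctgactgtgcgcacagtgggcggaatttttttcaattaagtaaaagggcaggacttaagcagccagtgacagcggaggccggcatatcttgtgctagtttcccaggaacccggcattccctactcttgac
Slc25a23 (chr9:1985316-1985615, minus strand): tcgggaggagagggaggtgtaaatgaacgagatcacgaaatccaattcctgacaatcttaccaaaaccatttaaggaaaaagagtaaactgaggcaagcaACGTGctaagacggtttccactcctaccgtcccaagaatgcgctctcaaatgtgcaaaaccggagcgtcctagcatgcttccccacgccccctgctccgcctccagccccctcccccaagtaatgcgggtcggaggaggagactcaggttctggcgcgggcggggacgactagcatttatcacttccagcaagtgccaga

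The window of Slc25a42 held 1 match to ACGTG, starting at base -201 from the start site, and that of Slc25a23 held 1, at base -150. The window of Slc25a25 held none. Of the 33469 windows over all genes, 19.3% held ACGTG and 4.61% held AAGGTCA. Of the 186 tested carriers 162 had a window, and 30.2% of these held ACGTG and 3.09% AAGGTCA. These are matches of letters, and binding was not measured here. The windows over all genes include genes not tested here, their GC content was not matched to that of the carriers, and the shares were not compared by a test. GC made up 65% of the Slc25a42 window, beside a median of 51.7% over all windows.

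Slc25a42 was lower than Normal in all 3 treated groups. Its level had a lowest, median and highest value of 0.28, 0.94 and 1.54 in SuHx + carvedilol animals, of 0.78, 1.55 and 2.15 in SuHx animals and of 0.64, 1.51 and 1.92 in Hypoxia animals, against 2.34, 2.61 and 3.04 in Normal animals. No animal of the treated groups reached the Normal range. The change was -1.67 ± 0.27 in SuHx + carvedilol against Normal (adjusted p = 0.000479), -1.12 ± 0.27 in SuHx against Normal (adjusted p = 0.0456) and -1.20 ± 0.27 in Hypoxia against Normal (adjusted p = 0.00559, limma). Relative to the median of all genes these changes were -1.35, -0.99 and -0.82. The call in SuHx against Normal was lost in 10 of the 12 fits that left out 1 animal, and those in the other 2 comparisons in none. SuHx + carvedilol and SuHx animals overlapped (change -0.56 ± 0.27, adjusted p = 0.303).

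Slc25a25 fell in Hypoxia and in SuHx + carvedilol ventricles against Normal. Its levels were -1.31, -1.0 and -0.62 (lowest, median and highest) in SuHx + carvedilol animals, -0.56, -0.43 and -0.17 in SuHx animals and -1.32, -1.04 and -0.38 in Hypoxia animals, against -0.40, 0.27 and 1.37 in Normal animals. The SuHx + carvedilol animals lay below all SuHx and all Normal animals, while Hypoxia and Normal overlapped in their extreme animals. The change against Normal was -1.29 ± 0.23 in SuHx + carvedilol (adjusted p = 0.00129), -0.68 ± 0.23 in SuHx (adjusted p = 0.175) and -1.21 ± 0.23 in Hypoxia (adjusted p = 0.00193). Set against SuHx instead, SuHx + carvedilol had a change of -0.60 ± 0.23, which did not pass the test (adjusted p = 0.197).

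Slc25a23 fell in the same comparisons as Slc25a25. Its levels were -2.76, -0.42 and 1.27 in SuHx + carvedilol animals, 0.29, 1.14 and 1.67 in SuHx animals and -0.35, 0.47 and 0.88 in Hypoxia animals, against 1.16, 1.98 and 2.61 in Normal animals. Hypoxia and Normal animals did not overlap, and SuHx + carvedilol overlapped Normal by 1 animal. The change against Normal was -2.44 ± 0.46 in SuHx + carvedilol (adjusted p = 0.00173), -0.84 ± 0.46 in SuHx (adjusted p = 0.48) and -1.50 ± 0.46 in Hypoxia (adjusted p = 0.0352). The Hypoxia call was lost in 7 of the 12 fits that left out 1 animal. The change against SuHx after carvedilol was -1.60 ± 0.46 (adjusted p = 0.0946), and among the mitochondrial carriers this was the lowest p in that comparison. The calls of Slc25a42, Slc25a25 and Slc25a23 in SuHx + carvedilol against Normal were lost with animal numbers over 100 as a covariate, and with a minimum of 2 animals, which adds a probe with few values to each. In Hypoxia against Normal that minimum ended the call of Slc25a25 too. Beside the omission of animals, 6 of 16 alternatives ended the Hypoxia call of Slc25a23. For Slc25a42 none did, while 4 of 14 ended its call in SuHx against Normal.

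Slc25a10, the dicarboxylate carrier, fell in SuHx + carvedilol against Normal. Its levels were -2.64, -1.82 and -0.58 in SuHx + carvedilol animals and -1.53, -1.09 and -0.66 in SuHx animals, against -0.35, -0.21 and -0.02 in Normal animals. Neither group overlapped with Normal. The change against Normal was -1.45 ± 0.31 in SuHx + carvedilol (adjusted p = 0.00399) and -0.87 ± 0.31 in SuHx, which did not pass the test (adjusted p = 0.195). The other mitochondrial carriers lower in SuHx + carvedilol than in Normal were Slc25a26, which carries S-adenosylmethionine (-2.08 ± 0.64, adjusted p = 0.0426), and Slc25a16 (-0.79 ± 0.25, adjusted p = 0.0463). Leaving out 1 animal ended the call in 7 of 12 fits for Slc25a26 and in 9 of 12 for Slc25a16.

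**Figure D3:**
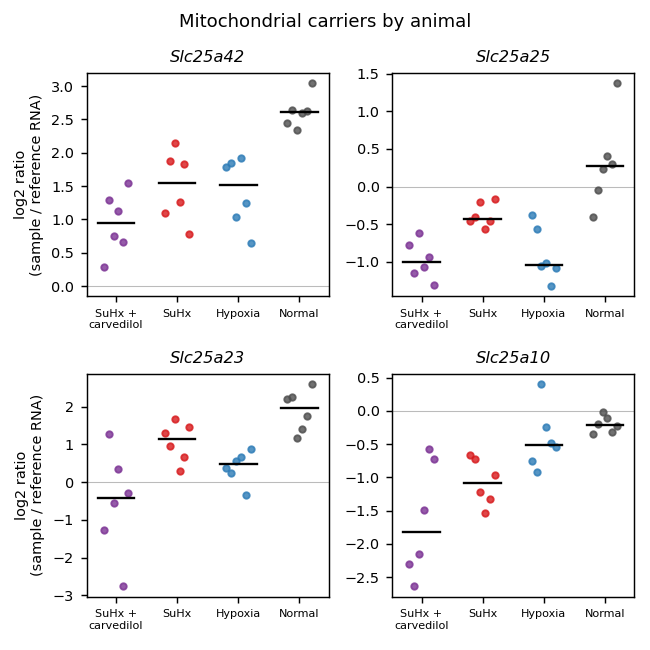
Level of 4 mitochondrial carriers by animal, as the log2 ratio of ventricle over reference RNA; each point is 1 animal and the black line is the median of the group. Slc25a42 lies between 2.34 and 3.04 in the Normal animals and between 0.28 and 2.15 in the other groups.

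Slc25a51, the NAD carrier of mitochondria, fell in Hypoxia against Normal and rose in SuHx against Hypoxia. Its level averaged 4 probes and had values of -1.30, -0.04 and 0.82 (lowest, median and highest) in SuHx + carvedilol animals, 0.19, 0.59 and 0.92 in SuHx animals and -4.0, -1.28 and -0.74 in Hypoxia animals, against -0.29, 0.51 and 0.84 in Normal animals. All Hypoxia animals lay below all SuHx and all Normal animals. The change was -2.15 ± 0.44 in Hypoxia against Normal (adjusted p = 0.00305), 4.45 times lower (-1.76 relative to the all-gene median), and 2.32 ± 0.44 in SuHx against Hypoxia (adjusted p = 0.00178), and all 4 probes had the same sign in each. In SuHx against Normal it was 0.16 ± 0.44 (adjusted p = 0.943).

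Slc25a5, an ADP/ATP carrier, rose in SuHx against Hypoxia by 1.19 ± 0.23 (adjusted p = 0.00213, 3 of 3 probes with the same sign). Its levels were -0.07, 0.37 and 0.72 in SuHx animals and -1.13, -0.96 and -0.56 in Hypoxia animals, with no overlap. Normal animals had -0.97, -0.33 and -0.06, with a median between the other medians, and the changes against Normal did not pass the test (0.72 ± 0.23 in SuHx, adjusted p = 0.142, and -0.46 ± 0.23 in Hypoxia, adjusted p = 0.194). Slc25a39, a carrier of glutathione, rose in the same comparison by 0.66 ± 0.21 (adjusted p = 0.0448), a call that 10 of 12 omissions ended. Slc25a4, the ADP/ATP carrier typical of heart muscle, had changes of -0.48 ± 0.27 in SuHx + carvedilol, -0.64 ± 0.27 in SuHx and -0.68 ± 0.27 in Hypoxia against Normal, with adjusted p of 0.271, 0.318 and 0.102.

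As a class, 26 of the 27 mitochondrial carriers had a negative change in Hypoxia against Normal, with a median of -0.55, and 18 of them lay below the median of all genes. In SuHx against Hypoxia 23 had a positive change (median 0.53), and 16 lay above the median of all genes. After carvedilol 24 had a negative change against SuHx (median -0.45), with 19 below the median of all genes and none called, and 21 had a negative change against Normal (median -0.48), with 21 below the median of all genes. In SuHx against Normal 17 had a negative change (median -0.14), with 15 below the median of all genes. Of all 9775 tested genes, 7079 had a negative change in Hypoxia against Normal and 6330 a positive one in SuHx against Hypoxia. Negative changes were found for 6290 in SuHx + carvedilol against SuHx and for 6770 in SuHx + carvedilol against Normal. The comparisons share animals of Hypoxia, SuHx or Normal.

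**Figure D4:**
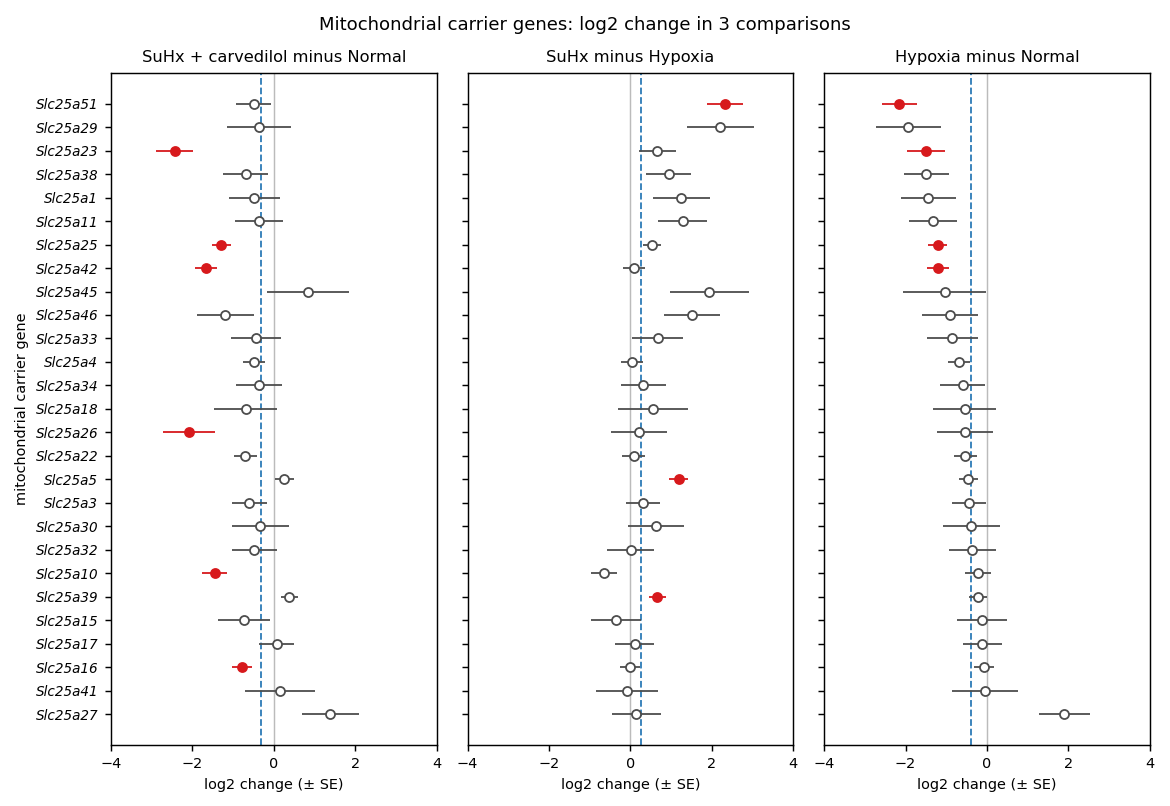
log2 change (point) and standard error (line) of 27 mitochondrial carrier genes in 3 comparisons, ordered by the change in Hypoxia minus Normal. Red filled points passed the test at an adjusted p under 0.05, open points did not, and the dashed blue line is the median of all tested genes (-0.32, 0.26 and -0.39 from left to right).

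In all, 9 carriers of several classes fell in Hypoxia against Normal and rose in SuHx against Hypoxia, and the Hypoxia animals are common to both comparisons. They were Slc13a2, Slc6a8, Slc16a6, Slc25a51, Slc38a10, Slc11a2, Slc12a4, Slc14a1 and Slc39a7. Of all tested genes 11.5% fell in Hypoxia against Normal and 9.78% rose in SuHx against Hypoxia, and the share that did both was not counted. With each animal centred on its median over the tested genes, Slc12a4 lost both calls, Slc13a2 its fall and Slc39a7 its rise.

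Slc6a8, which brings creatine into muscle cells, had levels of 0.91, 1.61 and 2.00 (lowest, median and highest) in SuHx + carvedilol animals, 1.26, 1.43 and 1.83 in SuHx animals and -0.35, 0.23 and 0.80 in Hypoxia animals, against 0.98, 1.22 and 1.64 in Normal animals. The highest Hypoxia animal lay below the lowest animal of every other group. The change was -1.08 ± 0.23 in Hypoxia against Normal (adjusted p = 0.00375), 2.11 times lower (-0.69 relative to the all-gene median), and 1.28 ± 0.23 in SuHx against Hypoxia (adjusted p = 0.000977). In SuHx against Normal it was 0.20 ± 0.23 (adjusted p = 0.808).

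Slc16a6, a member of the monocarboxylate transporter family, had levels of 0.29, 0.48 and 0.91 in SuHx + carvedilol animals, 0.12, 0.29 and 0.35 in SuHx animals and -1.76, -0.78 and -0.15 in Hypoxia animals, against -0.17, 0.15 and 0.33 in Normal animals. Hypoxia animals lay below all SuHx animals and overlapped Normal at the edge. The change was -1.01 ± 0.20 in Hypoxia against Normal (adjusted p = 0.00261) and 1.14 ± 0.20 in SuHx against Hypoxia (adjusted p = 0.000991), with 2 of 2 probes of the same sign. Against Normal the change was 0.40 ± 0.20 in SuHx + carvedilol and 0.13 ± 0.20 in SuHx (adjusted p = 0.207 and 0.882).

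Slc13a2, a sodium-coupled carrier of dicarboxylates such as citrate and succinate, had levels of 1.93, 2.42 and 2.62 in SuHx + carvedilol animals, 1.60, 2.22 and 2.85 in SuHx animals and -2.14, 0.43 and 0.83 in Hypoxia animals, against 0.75, 1.19 and 1.97 in Normal animals. SuHx and Hypoxia animals did not overlap. The change was 2.22 ± 0.38 in SuHx against Hypoxia (adjusted p = 0.0007) and -1.27 ± 0.38 in Hypoxia against Normal (adjusted p = 0.0304). Against Normal it was 1.09 ± 0.38 in SuHx + carvedilol and 0.95 ± 0.38 in SuHx, neither past the test (adjusted p = 0.0652 and 0.276). The Hypoxia against Normal call was lost in 4 of 12 omissions of an animal and in 8 of 16 other alternatives.

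Slc14a1, a urea transporter also known from red cells, had the largest change of the called carriers in Hypoxia against Normal, on 1 probe with few values. The 4 Hypoxia animals with a value had levels of 0.40, -2.91, -3.14 and -0.31, and 5 SuHx + carvedilol animals had 2.69, 2.53, 1.92, 2.67 and -1.12. SuHx animals had a lowest, median and highest value of -0.92, 1.85 and 1.94, and Normal animals of 2.01, 3.06 and 3.70. All Hypoxia animals lay below all Normal animals, and so did all SuHx animals. The change was -4.36 ± 0.80 in Hypoxia against Normal (adjusted p = 0.00166), or -3.98 relative to the all-gene median, and 2.89 ± 0.80 in SuHx against Hypoxia (adjusted p = 0.0236). Against Normal it was -1.13 ± 0.75 in SuHx + carvedilol and -1.47 ± 0.71 in SuHx (adjusted p = 0.355 and 0.399). Leaving out Hypoxia replicate 3 or 4 ended the call in SuHx against Hypoxia (adjusted p up to 0.0813). None of the 4 tested erythroid markers of 8 listed was called by limma in Hypoxia against Normal or SuHx against Hypoxia, with lowest adjusted p of 0.296 and 0.128. Their mean level per animal, over the markers with a value, was 0.93 to 3.05 in SuHx, 2.15 to 2.81 in Hypoxia and 1.64 to 2.18 in Normal animals. Hbb had a value in only 5 SuHx animals and Rhag in only 5 Hypoxia animals, and a missing marker moves such a mean. The part of the erythroid markers in the result was not tested.

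**Figure D5:**
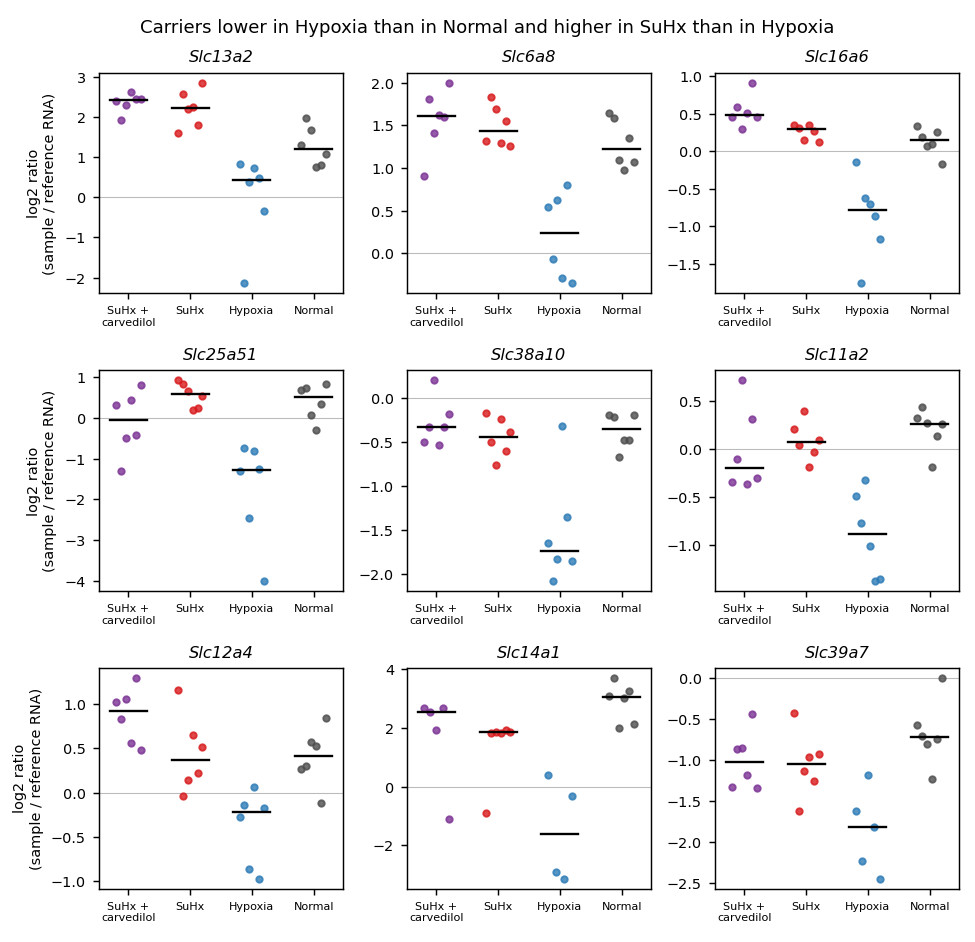
Level of the 9 carriers that fell in Hypoxia against Normal and rose in SuHx against Hypoxia, by animal, as the log2 ratio of ventricle over reference RNA; black lines are medians. The choice of genes sets Hypoxia below Normal and SuHx. The Hypoxia median is also below that of SuHx + carvedilol in each panel, and for Slc6a8 the highest Hypoxia animal (0.80) lies below every animal of the other groups.

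Metal carriers made up 4 of the 13 rises in SuHx against Hypoxia. Slc11a2, the divalent metal transporter that carries iron, had levels of -0.37, -0.20 and 0.72 in SuHx + carvedilol animals, -0.19, 0.07 and 0.40 in SuHx animals and -1.38, -0.89 and -0.32 in Hypoxia animals, against -0.19, 0.26 and 0.44 in Normal animals. Hypoxia animals did not overlap with SuHx or Normal animals. It fell by 1.10 ± 0.22 in Hypoxia against Normal (adjusted p = 0.00255) and rose by 0.98 ± 0.22 in SuHx against Hypoxia (adjusted p = 0.00566), with 2 of 2 probes of the same sign. Slc39a7, which releases zinc from the endoplasmic reticulum and Golgi, fell by 1.19 ± 0.26 in Hypoxia against Normal (adjusted p = 0.00543) and rose by 0.81 ± 0.26 in SuHx against Hypoxia (adjusted p = 0.0495), the second call being lost in 9 of 12 omissions. That second call of Slc39a7 was also lost in 11 of 15 other alternatives. Slc39a13, a further zinc carrier, rose by 1.14 ± 0.33 in SuHx against Hypoxia (adjusted p = 0.0245), and leaving out 1 animal ended this call in 3 of 12 fits. Other alternatives ended the call of Slc39a13 in 7 of 16 fits.

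The magnesium-linked carriers Slc41a3 and Slc41a2 were each called once. Slc41a3 had levels of 1.46, 2.36 and 2.75 in SuHx + carvedilol animals, 2.39, 2.61 and 2.98 in SuHx animals and -0.58, 0.99 and 2.36 in Hypoxia animals, against 0.57, 1.58 and 2.15 in Normal animals. SuHx animals lay above all Hypoxia and all Normal animals. The change was 1.85 ± 0.41 in SuHx against Hypoxia (adjusted p = 0.00505) and 1.13 ± 0.41 in SuHx against Normal, which did not pass the test (adjusted p = 0.21). Slc41a2 was the 1 carrier higher in Hypoxia than in Normal, by 1.59 ± 0.46 (adjusted p = 0.0275), with levels of -2.11, -1.30 and -0.27 in Hypoxia animals and of -2.37, -3.54, -2.64, -2.10 and -3.66 in the 5 Normal animals with a value. Its call was lost in 4 of 12 omissions, with 1 probe per gene, with all 40 arrays and without the Hypoxia animals numbered over 100, among others. The groups overlapped by the extreme animals, and the change was 1.33 ± 0.46 in SuHx + carvedilol against Normal (adjusted p = 0.066). Slc30a5, which loads zinc into the secretory pathway, fell by 0.76 ± 0.20 in SuHx + carvedilol against Normal (adjusted p = 0.0184, 3 of 3 probes with the same sign), a call lost without Normal replicate 2 (adjusted p = 0.0514). Its change of -0.72 ± 0.20 in SuHx + carvedilol against SuHx had the lowest p of all carriers in that comparison and did not pass the test (adjusted p = 0.0891).

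Other carriers lower in Hypoxia than in Normal had wider spreads. Slc20a2, a sodium-phosphate cotransporter, had levels of -0.61, 0.60 and 1.06 in SuHx + carvedilol animals, -1.02, 0.54 and 1.28 in SuHx animals and -1.27, 0.19 and 1.94 in Hypoxia animals, against 1.43, 1.69 and 1.86 in Normal animals. SuHx + carvedilol and SuHx animals all lay below Normal, yet the change passed the test only in Hypoxia, where 1 animal lay above all Normal animals. It was -1.21 ± 0.44 in SuHx + carvedilol, -1.26 ± 0.44 in SuHx and -1.63 ± 0.44 in Hypoxia against Normal (adjusted p = 0.081, 0.198 and 0.0192), and its 2 probes gave -2.29 and -1.08 in Hypoxia. Groups that did not overlap were found for 9.84% of all tested genes in SuHx + carvedilol against Normal, 3.55% in SuHx + carvedilol against SuHx, 7.35% in SuHx against Hypoxia, 5.52% in SuHx against Normal and 7.06% in Hypoxia against Normal.

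Slc2a8, an intracellular glucose transporter, fell by 2.53 ± 0.71 in Hypoxia against Normal (adjusted p = 0.0248). The 4 Hypoxia animals with a value had -3.64, -4.40, -3.81 and 0.41, so that 3 lay far below and 1 at the top of the Normal range of -0.97 to 0.41. Slc51a, a subunit of the bile acid and steroid transporter, fell by 2.58 ± 0.74 (adjusted p = 0.0275), with -5.18, 0.33, -1.39, -1.42 and -1.97 in 5 Hypoxia animals and a lowest, median and highest value of -0.23, 0.79 and 1.34 in Normal animals. Slc3a1, the heavy chain of a carrier of cystine and dibasic amino acids, fell by 2.11 ± 0.65 (adjusted p = 0.0367). Each of these 3 calls rests on 1 probe and was lost in 4, 4 and 8 of 12 omissions. Slc38a10, a member of an amino acid transporter family, fell by 1.14 ± 0.23 in Hypoxia against Normal (adjusted p = 0.0028) and rose by 1.07 ± 0.23 in SuHx against Hypoxia (adjusted p = 0.00468), with no call lost in any omission. Both calls were lost with only the first technical array of each animal. Slc12a4, a potassium-chloride cotransporter, fell by 0.79 ± 0.23 (adjusted p = 0.0301) and rose by 0.83 ± 0.23 (adjusted p = 0.0228) in the same comparisons, calls that were lost in 5 and 2 of 12 omissions. Beside the omission of animals, 7 and 5 of 16 alternatives ended these calls of Slc12a4.

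The carriers lower in SuHx than in Hypoxia were Slc7a3, a cationic amino acid transporter, and Slc12a5, a potassium-chloride cotransporter best known from neurons. Slc7a3 had levels of -6.35, -5.81, -7.34 and -5.55 in the 4 SuHx animals with a value and of -6.52, -5.05, -2.52, -3.25 and -4.22 in 5 Hypoxia animals, and the groups overlapped. Slc12a5 had levels of -3.72, -1.81, -2.68, -3.52 and -1.66 in 5 SuHx animals and of -1.47, -2.10, -0.57, -1.02 and 0.59 in 5 Hypoxia animals, and these groups overlapped too. The changes were -1.95 ± 0.60 (adjusted p = 0.0443) and -1.76 ± 0.56 (adjusted p = 0.0448), and 8 and 6 of 12 omissions ended the calls.

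Beside the mitochondrial carriers, Slc30a5 and Slc4a1ap (-1.13 ± 0.32, adjusted p = 0.0237, no carrier), 7 genes fell in SuHx + carvedilol against Normal. Slc37a4, the glucose-6-phosphate transporter of the endoplasmic reticulum, had levels of -0.68, -0.48 and -0.46 in SuHx + carvedilol animals, against -0.11, 0.52 and 0.64 in Normal animals, with no overlap (change -0.90 ± 0.22, adjusted p = 0.00939). Slc43a2, a carrier of large neutral amino acids, had -1.53, -0.59 and 0.33 in SuHx + carvedilol animals, against 0.33, 0.40 and 0.77 in Normal animals (change -1.07 ± 0.27, adjusted p = 0.0125). Its animals lay at or below the lowest Normal animal, and its 2 probes gave -1.99 and -0.43.

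Slc49a3 had -2.11 to 0.36 in 5 SuHx + carvedilol animals and 1.19 to 1.74 in Normal animals (change -1.84 ± 0.46, adjusted p = 0.0137), and Slc19a1, the reduced folate carrier, had -2.78 to -0.62 in SuHx + carvedilol animals and -0.58 to 0.06 in Normal animals (change -1.20 ± 0.37, adjusted p = 0.0364). Neither pair of groups overlapped. Slc35b4, a carrier of nucleotide sugars, fell by 0.87 ± 0.26 (adjusted p = 0.0341), and Slc16a11, of the monocarboxylate transporter family, fell by 1.65 ± 0.53 (adjusted p = 0.0489). Slc9a5, a sodium/proton exchanger best known from brain, had the largest change, -3.48 ± 1.08 (adjusted p = 0.0394), and a wide spread, from -10.28 to -1.74 in SuHx + carvedilol animals against -2.31 to -1.15 in Normal animals, with overlap. The calls of Slc19a1, Slc35b4, Slc16a11 and Slc9a5 were lost in 8, 6, 10 and 9 of 12 omissions of an animal, and those of Slc37a4, Slc43a2 and Slc49a3 in none. All 6 SuHx + carvedilol animals and 2 Hypoxia animals have numbers over 100 in the labels and no SuHx or Normal animal does. With that numbering as a covariate every fall called in SuHx + carvedilol against Normal lost its call. Another 1 carrier was then called lower and 1 higher. Only the Hypoxia group has both kinds of number, so that the covariate rests on few animals. Carvedilol and the numbering cannot be told apart in comparisons with SuHx or Normal. The mean level of cardiomyocyte markers was higher in SuHx + carvedilol than in Normal animals, though Ryr2 and Myh6 had negative changes. The part of these markers in the falls was not tested.

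Among the panel of carriers known from heart, most passed no test. Slc2a4, the insulin-responsive glucose transporter, had levels of 2.53, 3.48 and 4.41 in Hypoxia animals and 3.82, 4.12 and 4.96 in Normal animals, which overlapped (change -0.70 ± 0.43, adjusted p = 0.303). Slc16a1, which carries lactate and pyruvate, had 1.25, 2.01 and 2.33 in SuHx animals, 0.35, 0.86 and 1.58 in Hypoxia animals and 0.36, 1.09 and 1.94 in Normal animals. These overlapped, and its change was 0.98 ± 0.34 in SuHx against Hypoxia (adjusted p = 0.0635) and 0.75 ± 0.34 in SuHx against Normal (adjusted p = 0.356). Slc1a5, a glutamine carrier, had changes of -0.78 ± 0.26 in SuHx + carvedilol and -0.72 ± 0.26 in Hypoxia against Normal (adjusted p = 0.0556 and 0.0708). Slc3a2, the heavy chain of several amino acid transporters, had a change of 0.58 ± 0.22 in SuHx against Hypoxia (adjusted p = 0.0883). Slc25a11, the malate and 2-oxoglutarate carrier, had a change of -1.32 ± 0.59 in Hypoxia against Normal (adjusted p = 0.146).

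Of 21 other transport proteins listed beside the carriers, 16 were tested, and 5 fell in Hypoxia against Normal, where 11.5% of all tested genes fell. Atp1b1, a subunit of the sodium pump, had levels of 1.94, 2.20 and 2.60 in Hypoxia animals and 2.76, 3.38 and 4.13 in Normal animals, with no overlap (change -1.09 ± 0.23, adjusted p = 0.00346). Bsg, the chaperone of monocarboxylate transporters, had -1.41, -0.52 and -0.34 in Hypoxia animals and -0.05, 0.38 and 0.76 in Normal animals (change -1.07 ± 0.23, adjusted p = 0.00381), also without overlap. Atp1b2, Slco2b1 and Slco3a1 were the other 3. In SuHx against Hypoxia 4 rose, Atp1b1, Bsg, Slco3a1 and the outer membrane channel Vdac2, beside 9.78% of all tested genes. Atp1b1, Emb and Slco2b1 fell in SuHx + carvedilol against Normal, and Fxyd1, a regulator of the sodium pump, rose by 2.52 ± 0.41 (adjusted p = 0.000479), where 8.75% of all tested genes fell and 2.27% rose.

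Of the 315 carrier genes 129 were not tested, and 32 of these had a value in 4 animals of no group. A probe failed the rule only in SuHx + carvedilol for 46 probes, only in SuHx for 15, only in Hypoxia for 14 and only in Normal for 3. Just inside the rule were 76 probes with 4 animals in their least measured group, with median levels of -0.50 in SuHx + carvedilol, -0.32 in SuHx, -0.45 in Hypoxia and -0.35 in Normal. Just outside were 77 probes with 3 animals, with 0.04, -0.13, -0.09 and -0.34. Of the tested genes 130 had 1 probe and 56 several, and the probes of these 56 differed in sign for 22 in SuHx + carvedilol against Normal, 26 in SuHx + carvedilol against SuHx, 19 in SuHx against Hypoxia, 24 in SuHx against Normal and 19 in Hypoxia against Normal. Over the 5 comparisons 35 carriers were called at least once and 151 in none.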

How the data were processed

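The deposited values are log2 ratios of ventricle (Cy5) over reference RNA (Cy3), to which the authors applied a lowess correction per array (marray), as the series' design text and the labels state. A deposited table is titled log10, but the values ran from -13.6 to 14.0, too wide for a log10 ratio of scanner intensities, so that they were read as log2 ratios. How spots were background-corrected or filtered, and why 34.9% of cells are empty, is not given in the sources used here. Intensities were not analysed here, and the number of arrays limits the precision. Arrays carried a value for 19264 to 35758 of 43379 spots.

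Genes were named from the platform annotation. Spots of a probe and arrays of an animal were averaged, and probes of a gene were averaged after the offset of each probe was removed. Differences were tested with limma 3.58.1 in R 4.3.3 (lmFit, contrasts.fit, eBayes) on all 24 animals and 9775 genes, two-sided, with Benjamini-Hochberg adjustment over all genes and a threshold of 0.05. Groups and animals come from the labels, and the spread between animals of a group is that of the test. Substrate classes follow the family number. Named genes are every called carrier, a panel of carriers and the lowest p of a class, and a selection is printed. Motifs were searched in the RefSeq promoter table. The code was tested on simulated data. The members, classes and lists were chosen with earlier results of these data known. Alternatives were other scalings, filters, probe summaries, technical arrays, samples in the fit, animal weights, a covariate for animal numbers, a replicate block and the omission of each animal. The plain average of probes, the centring of animals and the omission of the 2 Hypoxia arrays with the fewest values were chosen after seeing the data.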

Additional observations from a re-analysis of the deposited data

Results flagged for a closer look

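In 10 of 140 groups of animals tested over the called carriers, 1 animal lay far from the others by Dixon's test, a result that chance gives in about 1 group in 20. Slc14a1 was at -1.12 in SuHx + carvedilol replicate 6, where the other 4 animals with a value lay at 1.92 to 2.69, and at -0.92 in SuHx replicate 1, where the others lay at 1.82 to 1.94. Slc2a8 was at -1.93 in SuHx + carvedilol replicate 2 (others -0.78 to -0.34), at -3.14 in SuHx replicate 5 (others -1.22 to -0.45) and at 0.41 in Hypoxia replicate 5 (others -4.40 to -3.64). Slc37a4 was at -0.68 in SuHx + carvedilol replicate 1 (others -0.48 to -0.46) and at -1.16 in Hypoxia replicate 3 (others -0.06 to 0.30). Slc16a11 was at -1.71 in Hypoxia replicate 4 (others 1.41 to 2.61). Slc25a39 was at -0.65 in SuHx + carvedilol replicate 1 (others -0.06 to 0.28). Slc35b4 was at 0.13 in Normal replicate 6 (others -0.87 to -0.59).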

How the results depend on the processing

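No called carrier changed direction under any of the alternatives that could be run for it. Leaving out 1 animal at a time, Hypoxia against Normal had 12 to 17 carriers lower and 0 to 2 higher (median change -0.46 to -0.36), SuHx against Hypoxia 9 to 13 higher and 0 to 3 lower (0.25 to 0.39), SuHx + carvedilol against Normal 8 to 17 lower and 0 to 2 higher (-0.44 to -0.30), SuHx against Normal 0 to 1 lower (-0.14 to -0.09) and SuHx + carvedilol against SuHx 0 to 1 lower (-0.26 to -0.20). The count of 8 was without Normal replicate 2.

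In Hypoxia against Normal, where 16 were lower and 1 higher, animal weights gave 26 lower, and centring each animal on the median of the tested genes gave 9 lower and 2 higher, with a median of -0.12. The number higher was 5 with quantile normalisation, 3 with equal spread, 2 with only the 2 groups compared, with the replicate block and when the 2 Hypoxia arrays with fewest values were dropped, and 0 with values in all 6 animals, with all 40 arrays, with the covariate for animal numbers and without the Hypoxia animals numbered over 100. The first array of each animal gave a median of -0.54.

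In SuHx against Normal, where 1 was lower, 12 were lower and 3 higher with animal weights, 6 and 1 with only the 2 groups compared, 2 and 1 with quantile normalisation and 3 lower with values in all 6 animals. Equal spread gave 2 lower, and the first array, the replicate block, centred animals and a minimum of 2 animals gave 0 lower, the last with 1 higher. In SuHx against Hypoxia, where 2 were lower, equal spread gave 5 lower, quantile normalisation 4 and the replicate block 1, and 0 were lower with values in all 6 or at least 2 animals, only the 2 groups, the animal number covariate, no Hypoxia animals numbered over 100 and animal weights. Its median was 0.28 with quantile normalisation, 0.22 with a minimum of 2 animals, 0.24 with 1 probe per gene, 0.12 with centred animals and 0.25 without those 2 Hypoxia arrays.

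In SuHx + carvedilol against SuHx, where none was called, all 40 arrays gave 5 lower, animal weights 2 lower and the animal number covariate 1 lower and 1 higher. Its median was -0.14 with a minimum of 2 animals and -0.09 with centred animals. In SuHx + carvedilol against Normal, where 15 were lower and 0 higher, animal weights gave 30 lower and 7 higher, equal spread 23 and 4, centred animals 7 and 4, a minimum of 2 animals 6 and 1, the first array 5 and 1, and the animal number covariate 1 and 1. The number higher was 5 with quantile normalisation, 4 with only the 2 groups, 2 with 1 probe per gene and 1 with array medians centred, values in all 6 animals or the replicate block. The median was -0.26 with a minimum of 2 animals and -0.18 with centred animals. The cause was not tested, except that a minimum of 2 animals adds probes with few values, as for Slc25a42, Slc25a25 and Slc25a23.

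Changes that passed no test and turned their sign were SuHx + carvedilol against Normal for Slc25a51 (0.80 with the animal number covariate) and Slc25a4 (0.03 with 1 probe per gene), SuHx + carvedilol against SuHx for Slc25a42 (0.08 with a minimum of 2 animals and 0.14 with the covariate), Hypoxia against Normal for Slc2a4 (0.25 with values in all 6 animals and 0.25 with 1 probe per gene) and SuHx against Normal for Slc20a2 (0.22 with 1 probe per gene). The replicate numbers were not taken to pair the animals, since the correlation of the deviations of same-numbered animals was over 0.1 in 1 of 6 pairs in SuHx + carvedilol against Normal, 0 in SuHx + carvedilol against SuHx, 0 in SuHx against Hypoxia, 3 in SuHx against Normal (up to 0.18) and 0 in Hypoxia against Normal. The block ended the call of Slc25a42 in SuHx against Normal. Dim or saturated spots could not be told from others, and 130 carriers rest on 1 probe.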
